A study of Mus musculus with 12 samples.

Results

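Small heat shock proteins were followed across 4 groups of cells profiled on 1-colour Agilent mouse expression arrays. The set held 8 genes: the small heat shock protein genes Hspb1, Hspb2, Hspb3, Hspb6, Hspb7, Hspb8 and Cryab, and Bag3, whose protein works with them. Every probe whose gene name was one of these was taken, which gave 9 probes on 18 spots per array, out of 35080 gene names, 55681 probes and 59305 spots. The genes were chosen by their log2 levels, which were known in all 4 groups, so their values are given here as a description. Counts of members past a threshold are read off fits over all genes and support nothing about the members. Levels are log2 of the scanner's processed signal minus the array's 75th percentile, so that 0 is the array's own 75th percentile. A level describes 1 probe and cannot be set against that of another probe.

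Small heat shock proteins bind partly unfolded proteins without using ATP and hold them until chaperones of the Hsp70 class refold them or pass them on for degradation. They carry a conserved alpha-crystallin domain and form dimers and larger assemblies. Several of them are best known from skeletal, cardiac and smooth muscle, and others are made by many cell types, often under the heat shock factor HSF1. BAG3 joins HSPB8 to Hsp70 and to the ubiquitin ligase CHIP (the product of Stub1), and this complex sends damaged proteins such as filamin to the autophagosome.

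The 4 groups had 3 arrays each. They were RAW264.7 cells transfected with an ABHD5 shRNA, RAW264.7 cells transfected with PLKO (the empty hairpin vector), CT-26 cells primed by the ABHD5-KD RAW264.7 cells, and CT-26 cells primed by the control RAW264.7 cells. RAW264.7 is a mouse macrophage-like line and CT-26 a mouse colon carcinoma line. The study asked what follows from loss of macrophage ABHD5, a protein that activates the triglyceride lipase ATGL, in the macrophages and in the cancer cells exposed to them. How the priming was done, whether RAW264.7 cells were removed before RNA was taken from the CT-26 cells, whether one hairpin or several were used, and whether the 3 samples of a group were separate cultures is not in the labels. Both CT-26 groups had been primed, and CT-26 cells without RAW264.7 contact were not analysed here. The p-values given for other genes measure only the spread between these samples, which may be technical.

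The promoter sequences of the members were read first, because heat shock factors act through a short inverted repeat of nGAAn units, the heat shock element. RefSeq (GRCm38.p6) gave a promoter for 6 of the 8 genes and 7 start sites, Hspb6 having a pair, and the 250 bases before each start were searched on both strands. The windows of 3 genes are shown in lower case, with matches to GAANNTTC or to the TATA box (TATAAA) in capitals. Hspb7 is shown as the member with the widest change, Hspb3 as another member that was lower in the knockdown, and Hspb1 as the member with more than one heat shock element match. Hspb7 lies on the plus strand at chr4:141420529-141420778, Hspb3 on the minus strand at chr13:113663677-113663926 and Hspb1 on the plus strand at chr5:135887669-135887918.
Hspb7: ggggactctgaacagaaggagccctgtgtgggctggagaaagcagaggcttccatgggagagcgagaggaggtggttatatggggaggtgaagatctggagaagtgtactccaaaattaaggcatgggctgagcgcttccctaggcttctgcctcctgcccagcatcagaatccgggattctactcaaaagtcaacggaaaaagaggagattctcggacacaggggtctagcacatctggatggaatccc
Hspb3: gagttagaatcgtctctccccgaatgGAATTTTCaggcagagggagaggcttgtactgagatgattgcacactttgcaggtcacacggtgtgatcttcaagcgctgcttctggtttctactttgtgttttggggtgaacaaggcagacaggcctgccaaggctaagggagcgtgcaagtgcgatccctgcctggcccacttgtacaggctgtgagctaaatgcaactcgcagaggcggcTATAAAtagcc
Hspb1: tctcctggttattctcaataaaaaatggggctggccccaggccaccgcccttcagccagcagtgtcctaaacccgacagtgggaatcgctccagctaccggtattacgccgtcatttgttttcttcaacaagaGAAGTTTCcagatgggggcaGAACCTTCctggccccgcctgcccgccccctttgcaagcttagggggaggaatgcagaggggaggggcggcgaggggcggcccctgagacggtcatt
The Hspb1 window held 2 matches to GAANNTTC, which began 117 and 97 bases before the start. The Hspb3 window held 1 that began 224 bases before the start, and the second Hspb6 start had 1 that began 120 bases before it. These 3 of 7 member windows compare with 6.69% of 32851 mouse promoter windows. The opposite arrangement, TTCNNGAA, was found in no member window and in 7.17% of all windows. A run of 3 alternating units, which contains both arrangements, was in no member window and in 0.466% of all. TATAAA stood in the Hspb3 window and in that of the second Hspb6 start, against 12.4% of all windows. The CArG box, bound by serum response factor in muscle genes, was in no member window and in 1.47% of all. The Hspb7, Hspb8 and Bag3 windows held none of the motifs searched. A match is only a run of letters, and these counts say nothing of whether a factor was bound.

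The arrays had 59305 spots that were not controls, and 56.5% to 77.3% of them were well above background by the scanner's own rule. RAW264.7 control arrays 1 and 2 were on slide 1, control array 3 shared slide 2 with the knockdown arrays, and the CT-26 arrays were on slide 3, each slide with a scan of its own. The 2 arrays on slide 1 had the fewest spots above background (56.5% and 57.9%, against 69.0% to 73.0% on slide 2). The targeted gene Abhd5 had log2 levels of 0.25, 0.23 and 0.39 in knockdown cells, against 1.38, 1.93 and 1.52 in control RAW264.7 cells, a log2 change of -1.32 ± 0.20 (SE, n = 3 each, limma adjusted p = 0.00346), which left 40.0% of the signal. With slide as a block its change was -1.23 (limma adjusted p = 0.0556). In CT-26 cells Abhd5 differed by 0.07 ± 0.15 (adjusted p = 0.776). All 10 macrophage markers read were well above background in both RAW264.7 groups. Of these, 6 were above background in knockdown-primed and 7 in control-primed CT-26 cells, where Spi1 was not above background on any array. Of 8 epithelial markers, 6 (keratins and claudins) were above background on all arrays of both CT-26 groups. Epcam and Cdh1 were so on no knockdown-primed array and Cdh1 on no control-primed one. In RAW264.7 cells 6 of the 8 were above background on all knockdown arrays and 4 on all control arrays. Of 6 fibroblast markers, 5 were above background in both CT-26 groups, 4 in knockdown and 2 in control RAW264.7 cells. Detection of these markers was thus not confined to CT-26 cells. The summed unlogged level of the epithelial list was 1.46 to 2.70 in RAW264.7 and 4.86 to 8.17 in CT-26 cells. For the fibroblast list it was 0.133 to 0.268 and 61.8 to 81.8. For the macrophage list it was 213 to 255 and 50.8 to 70.9. The macrophage sum in CT-26 cells was mostly Itgam. Its mean level was 5.77 in knockdown-primed and 5.60 in control-primed CT-26 cells, against 5.86 in knockdown and 6.24 in control RAW264.7 cells. Every other macrophage marker also averaged lower in both CT-26 groups than in either RAW264.7 group. Lyz2, for example, averaged -4.64 and -4.39 in these CT-26 groups, against 5.54 and 3.66 in these RAW264.7 groups.

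Hspb7 set the knockdown apart from the control. HSPB7 is a small heat shock protein of heart and skeletal muscle that keeps proteins, filamin C among them, from aggregating. Its log2 levels were -3.89, -3.38 and -3.38 in knockdown RAW264.7 cells, against 1.63, 1.68 and 2.03 in control RAW264.7 cells. The groups did not overlap, and the gap between them was many times the spread within either. The fitted log2 change was -5.33 ± 0.22 (SE, n = 3 each), a signal 40.3-fold lower in the knockdown, and it was the 3rd largest fall among the 25461 genes tested. At least 4-fold falls past the threshold (an adjusted p under 0.05) made up 0.353% of all genes tested. Within slide 2, where control array 3 and the knockdown arrays lay side by side, the change was -5.58. These are cell populations, so fewer cells with the transcript and less transcript per cell cannot be told apart.

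The Hspb7 probe (mm9 chr4:140980355-140980414, plus strand) was the only member probe printed more than once, with 10 spots per array, of which 7 to 10 were free of outlier flags. Spots of an array differed little. On the 3 knockdown arrays they ran from -3.99 to -3.77, from -3.48 to -3.23 and from -3.50 to -3.24, against 1.46 to 1.89, 1.41 to 1.96 and 1.97 to 2.08 on the 3 control arrays. No knockdown spot came within 4 log2 units of a control spot. The knockdown level still stood above the lowest signal that counted as well above background on those arrays, which was between -6.93 and -6.32.

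**Figure D1:**
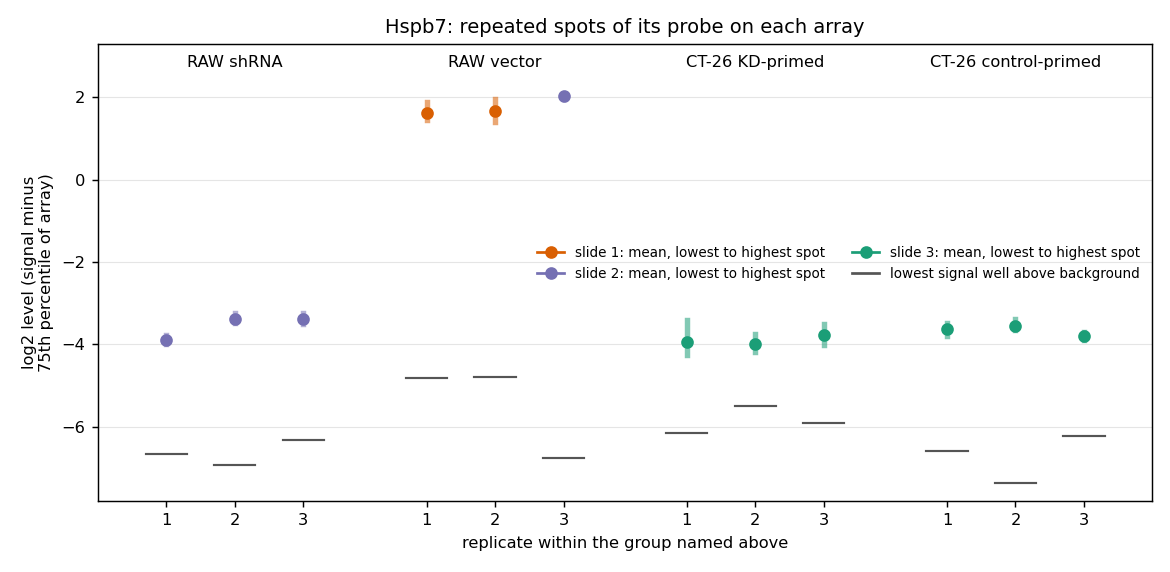
Log2 level of Hspb7 on each of the 12 arrays (points, mean of its spots; thick bars, lowest to highest spot), coloured by slide, with the lowest signal well above background on that array as a grey line. The 3 control RAW264.7 arrays sit at 1.63 to 2.03 and the 9 others between -4.00 and -3.38, all above their arrays' grey lines.

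The other muscle-type members were near the lower end of detection. Hspb3, whose protein pairs with HSPB2 in muscle, had log2 levels of -4.85, -4.57 and -4.79 in knockdown cells, against -4.24, -3.53 and -4.09 in control RAW264.7 cells. All 3 knockdown arrays lay below all 3 control arrays, with a log2 change of -0.79 ± 0.23 (SE). The mean difference was close to the range of the control arrays, of which array 2 was the highest. It passed the threshold over all genes, but with slide as a block the change was -0.65 and did not, nor after median centring of the arrays (-0.57). Hspb2, known for binding the myotonic dystrophy kinase, was well above background on 1 of 3 knockdown arrays and 1 of 3 control arrays, and so has no RAW264.7 change here.

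The muscle markers that could mark another source of these transcripts were read beside them. Of 13, 10 were well above background on all knockdown arrays and 9 on all control RAW264.7 arrays, with Ldb3 above background on no array of either group and Actc1 on no knockdown array. Their summed signal, in multiples of the array's 75th percentile, was 15.1 to 19.9 in knockdown cells and 20.5 to 28.1 in control cells. This sum was mostly Tpm2 (mean level 3.38 in knockdown and 4.04 in control cells) and Myod1 (2.56 and 1.55). The control arrays of Myod1 spread widely, at 1.67, -0.11 and 3.09. Single markers went both ways: Des averaged -1.36 in knockdown and -2.46 in control cells, and Ckm -4.50 and -2.98. Of the 10 muscle markers tested, 1 rose and 5 fell in the knockdown by the limma fit over all genes. In that fit 7.94% of all genes tested were called higher and 14.8% lower. The median change was -0.72 for the muscle markers and -0.30 for all genes. With slide as a block 0 of these markers rose and 2 fell. In CT-26 cells the sum was 31.2 to 38.3 after knockdown priming and 32.0 to 33.6 after control priming. There it was mostly Tpm2 (mean level 4.45 and 4.22) and Tnnt2 (3.40 and 3.66). The part of the muscle markers in the Hspb7 difference was not tested.

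Among the members made outside muscle as well, Hspb6 was lower in the knockdown. HSPB6, or Hsp20, is a target of cyclic nucleotide kinases and relaxes smooth muscle when phosphorylated. Its log2 levels were 1.37, 0.999 and 0.89 in knockdown cells, against 1.75, 2.19 and 1.56 in control RAW264.7 cells, so the arrays did not overlap. The log2 change was -0.74 ± 0.23 (SE, n = 3 each) and passed the threshold over all genes. With slide as a block it was -0.47, after median centring -0.53 and after quantile normalization -0.64, and none of these passed.

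Cryab encodes alphaB-crystallin, a lens protein that also guards desmin filaments in muscle. By the probe used for the gene its log2 levels were 0.20, 0.29 and 0.18 in knockdown cells, against 0.50, 0.77 and 0.55 in control RAW264.7 cells. Here too the arrays did not overlap, but the change of -0.38 ± 0.17 (SE) was close to the median of all genes (-0.30) and did not pass the threshold. By its other probe the levels were -4.15, -4.39 and -4.36 in knockdown cells and -4.24, -3.90 and -4.24 in control cells, which overlapped, with a change of -0.17 ± 0.19 (SE).

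Hspb8, whose protein binds BAG3, could not be given a direction in RAW264.7 cells. Its log2 levels were -4.99, -5.34 and -5.71 in knockdown cells, against -4.51, -3.98 and -6.42 in control cells. The 3rd control array, the only one on slide 2, was lower than every other RAW264.7 array, and the 2 on slide 1 were higher. The log2 change was therefore -0.38 ± 0.55 (SE) over all arrays, 1.07 with slide as a block, and -1.10 without control array 3. Hspb1, or Hsp27, a heat-inducible member found in many cells, was well above background on no RAW264.7 array, so no change is given for it.

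For Bag3 the knockdown and control arrays overlapped. Its log2 levels were 2.99, 2.94 and 3.03 in knockdown cells, against 2.93, 2.62 and 3.103 in control RAW264.7 cells, and the knockdown arrays lay inside the control range. The log2 change was 0.10 ± 0.19 (SE), with a 95% interval of -0.33 to 0.53, and -0.12 with slide as a block.

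**Figure D2:**
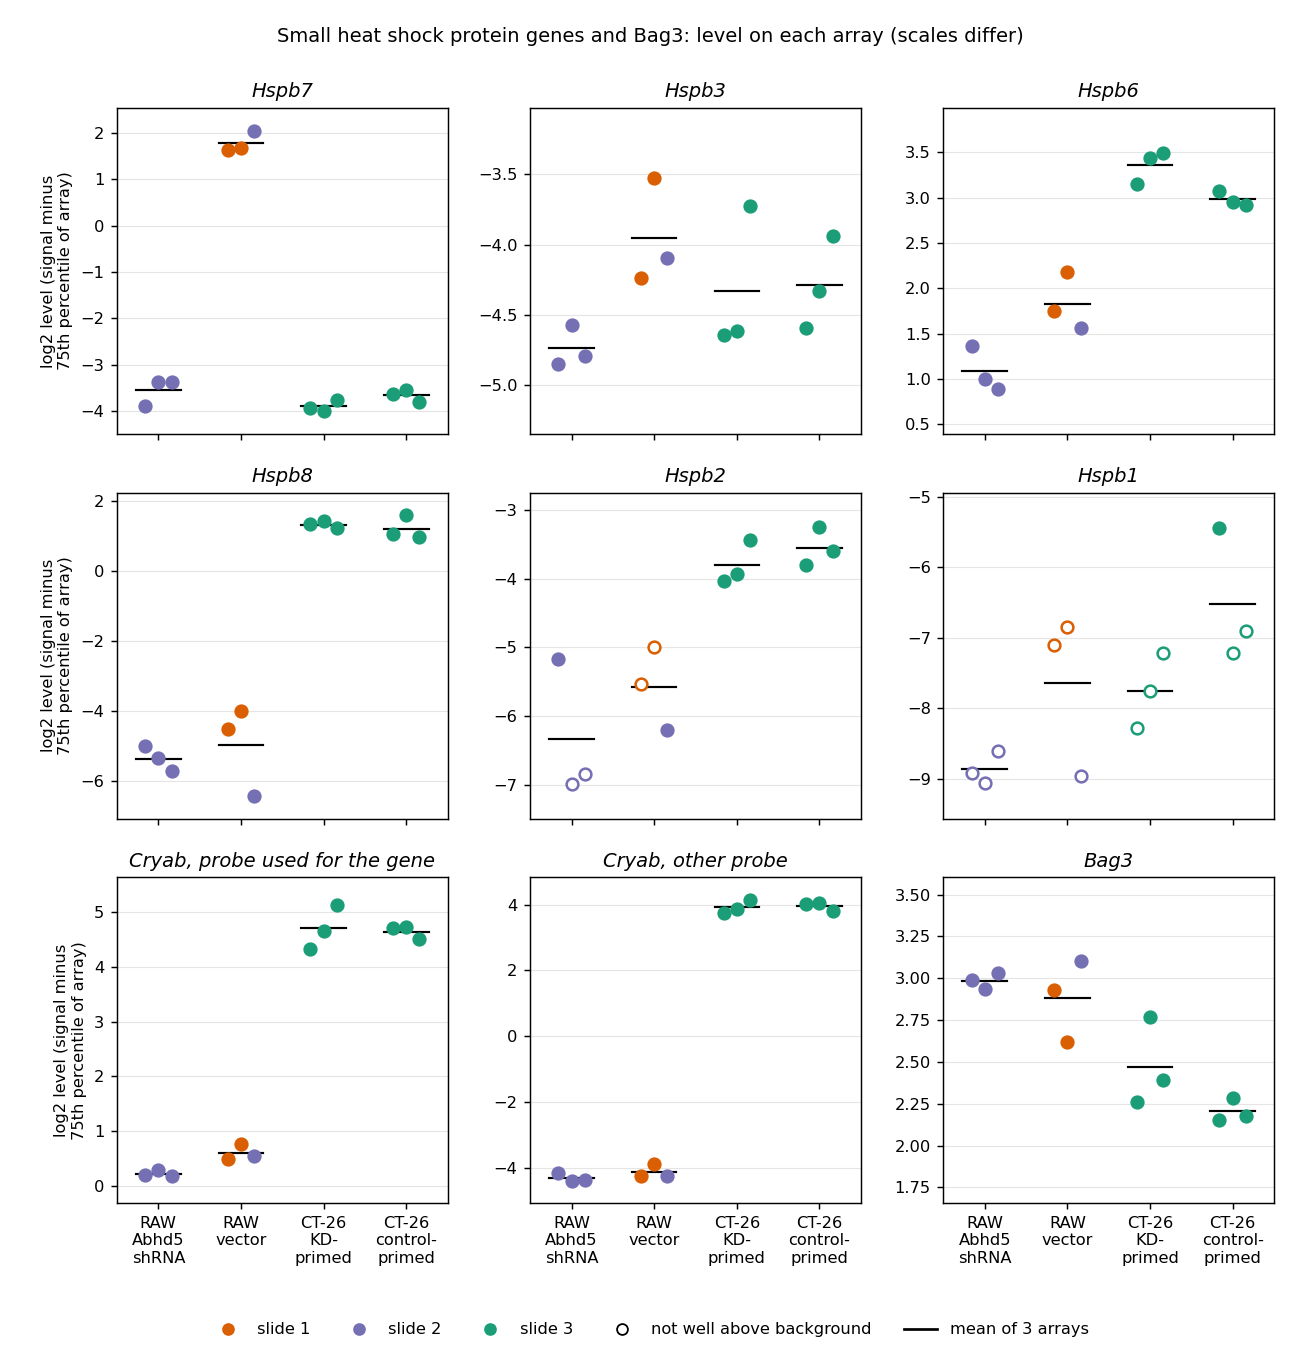
Log2 level of each of the 9 member probes on each array (points; bars, mean of 3 arrays), by group, coloured by slide, with open points where the probe was not well above background. The panels have different scales. Of the Hspb7 knockdown points 1 lies within the range of the CT-26 points and 2 just above it, and the Hspb8 control points split by slide.

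In RAW264.7 cells 6 of the 8 members could be tested, and the 3 past the threshold (Hspb3, Hspb6 and Hspb7) were all lower in the knockdown, where 22.8% of all genes tested were called, 14.8% lower and 7.94% higher. Arrays did not overlap for 4 of the 6, all lower in the knockdown. They did not for 52.2% of all genes, 39.7% in that direction and 12.5% in the other. The median change of the 6 was -0.56 and that of all genes -0.30. Because these contrasts were in view when the genes were picked, nothing is read from the counts. The number of calls rested on single arrays and on scaling. It was 1 without control array 1 or without any 1 knockdown array, and 4 without control array 3, which added Hspb8. It was 1, Hspb7 alone, with slide as a block, within slide 2, and after median centring or quantile normalization. Those last scalings moved the median change of all genes to -0.08, and under them 62.5% and 53.9% of all calls were higher, against 34.8% here.

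In CT-26 cells the member changes (knockdown-primed minus control-primed) lay between -0.25 and 0.38. By limma 0 of the 7 tested members passed the threshold and 1, Hspb6, had an unadjusted p under 0.05, where 6.36% of all genes tested passed, 3.15% higher and 3.21% lower. Hspb6 was higher after knockdown priming, with log2 levels of 3.15, 3.43 and 3.49, against 3.07, 2.95 and 2.92 after control priming. These arrays did not overlap, as for 36.2% of all genes (25.1% higher and 11.1% lower). The log2 change was 0.38 ± 0.16 (SE, n = 3 each), or 0.16 after quantile normalization. Hspb7 levels were -3.94, -4.00 and -3.76 in knockdown-primed and -3.64, -3.56 and -3.81 in control-primed CT-26 cells, which overlapped, with a log2 change of -0.23 ± 0.15 (SE). Its 95% interval ran from -0.58 to 0.11.

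The remaining members that could be tested overlapped between the CT-26 groups. Bag3 had levels of 2.26, 2.77 and 2.39 in knockdown-primed and 2.15, 2.28 and 2.18 in control-primed cells (log2 change 0.27 ± 0.17, SE). The changes of Hspb8, Cryab and Hspb3 were 0.12 ± 0.19, 0.06 ± 0.21 and -0.04 ± 0.27 (SE). Hspb2, well above background on all CT-26 arrays, had a log2 change of -0.25 ± 0.21 (SE). Hspb1 was well above background on 1 CT-26 array only, control-primed array 1, and was not tested, although its knockdown-primed arrays all lay below its control-primed ones.

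**Figure D3:**
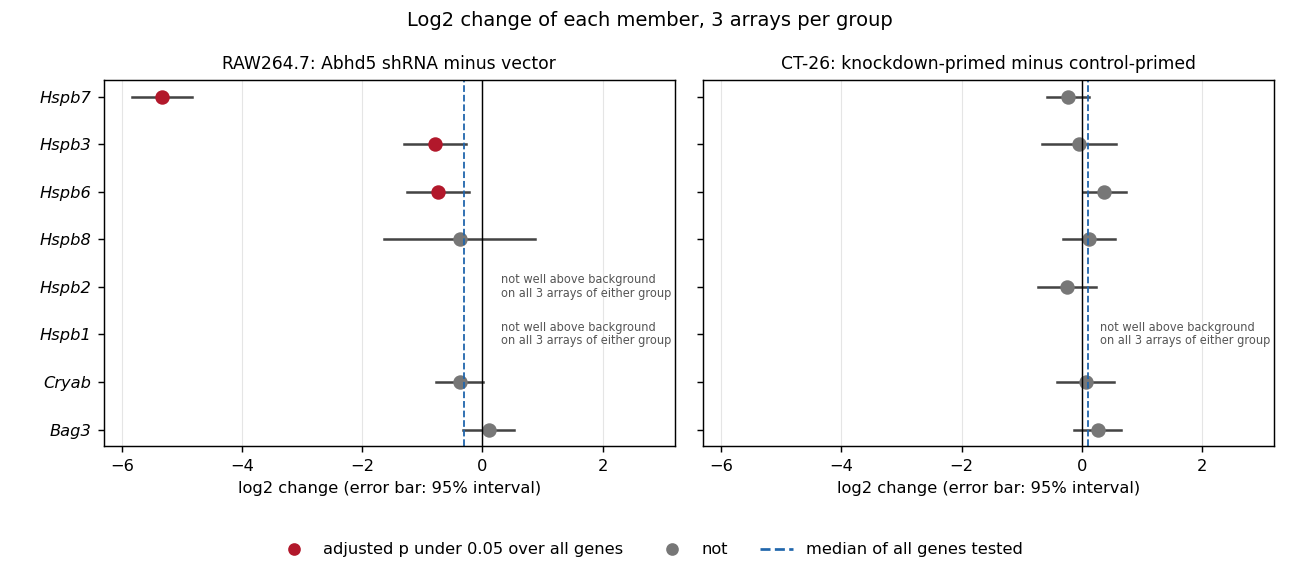
Log2 change of each tested member in RAW264.7 cells (left) and CT-26 cells (right), with its 95% interval from the limma fit, and the median change of all genes tested as a dashed line. Hspb7 stands at -5.33 in RAW264.7 cells and at -0.23 in CT-26 cells, and the other members lie between -0.79 and 0.38.

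The change in RAW264.7 cells minus that in CT-26 cells was fitted over all 12 arrays. Of 7 members tested, 2 passed the threshold, Hspb7 at -5.10 ± 0.26 and Hspb6 at -1.12 ± 0.28 (SE), both with the lower change in RAW264.7 cells. Of all genes tested 31.4% were called, 23.9% in that direction and 7.44% in the other. For Hspb6 the changes had opposite signs, -0.74 in RAW264.7 cells and 0.38 in CT-26 cells, where the second did not pass alone. With slide as a block Hspb7 alone passed, and the Hspb6 difference was -0.85. The other differences ran from -0.75 for Hspb3 to -0.16 for Bag3, with a median over all genes of -0.39.

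The cell lines stood far apart in several of these genes. In control RAW264.7 cells 4 of the 7 detected members lay below control-primed CT-26 cells on every array, 2 lay above and 1, Hspb3, overlapped. Of all genes, 74.6% did not overlap, 27.2% below and 47.4% above. All CT-26 arrays were on slide 3 and no RAW264.7 array was, so cell line, slide and priming cannot be told apart. By the probe used for each gene, Hspb8 had the widest gap below: its mean level was -4.97 ± 1.28 (SD) in control RAW264.7 cells and 1.21 ± 0.34 (SD) in control-primed CT-26 cells, a 72.4-fold lower signal. Cryab averaged 0.60 ± 0.14 (SD) in control RAW264.7 and 4.65 ± 0.12 (SD) in control-primed CT-26 cells, 16.5-fold lower, and its other probe gave 271-fold. Hspb6 was 2.22-fold lower in control RAW264.7 cells.

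Hspb2 was also below in RAW264.7 cells, at -5.57 ± 0.60 (SD) in control RAW264.7 cells, against -3.56 ± 0.28 (SD) in control-primed CT-26 cells, but on only 1 of the 3 RAW264.7 arrays was it well above background. The Hspb2 and Cryab probes are neighbours on mouse chromosome 9 in mm9, at chr9:50559211-50559270 on the minus strand and, for the nearer Cryab probe, chr9:50561458-50561517 on the plus strand, 2187 bases apart, so the genes run away from each other. Which exon or untranslated region the probes read was not looked up, for want of an mm9 annotation. Both genes were higher in CT-26 cells.

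Hspb7 and Bag3 ran the other way. Hspb7 averaged 1.78 ± 0.22 (SD) in control RAW264.7 cells and -3.67 ± 0.13 (SD) in control-primed CT-26 cells, a 43.7-fold higher signal. In knockdown RAW264.7 cells it averaged -3.55 ± 0.30 (SD), and 1 of the 3 arrays lay within the range of the CT-26 arrays. The order of the 4 group means for Hspb7 was thus control RAW264.7, knockdown RAW264.7, control-primed and knockdown-primed CT-26, and only the first step was free of overlap. Bag3 averaged 2.88 ± 0.24 (SD) in control RAW264.7 and 2.20 ± 0.07 (SD) in control-primed CT-26 cells, 1.60-fold higher. For Hspb6 all 4 groups were free of overlap, from knockdown-primed CT-26 at the top through control-primed CT-26 and control RAW264.7 to knockdown RAW264.7 cells at the bottom.

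The genes most like each member were found by comparing the 4 group means, each gene centred on its own mean, among 17191 genes with a symbol. Likeness is the mean absolute difference over these 4 points. Hspb7 had few close matches. The nearest was Hsh2d, an SH2-domain adaptor of blood cells, at 0.25 log2 units, with mean levels of -4.79 in knockdown and 0.12 in control RAW264.7 cells and -5.19 and -4.39 in knockdown-primed and control-primed CT-26 cells. Neil2, a DNA glycosylase of base excision repair, followed at 0.64 and Enthd1 at 0.76, but Neil2 was well above background on no CT-26 array and Enthd1 on 1 of 3 in each group but control RAW264.7, so these distances rest partly on undetected levels. The other members had nearer company: Elf1, Zbtb24 and Wfdc12 for Hspb3 (0.01 to 0.03), Krt86, Aptx and Rbbp8 for Hspb6 (0.03 to 0.04), and Hes1, Dab2ip and Aspa for Hspb8 (0.05 to 0.09), where Hes1 and Aspa were above background on no control RAW264.7 array. For Cryab they were Uroc1, also on no control RAW264.7 array, Gsta4 and Cldn9 (0.03 to 0.06) and for Bag3 Cblc, Junb and AW209491 (0.01 to 0.02). These are likenesses over 4 means.

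The rest of the chaperone network was read from 9 lists, chosen with earlier results of these data known. Among the other small heat shock family genes in RAW264.7 cells, 2 of 4 fell in the knockdown, none rose, and the median change was -1.12 (all genes -0.30). Cryaa, the partner of alphaB-crystallin in the lens, was well above background on all 3 control arrays (-4.69, -4.37 and -6.42) and on none of the knockdown arrays (-7.24, -7.32 and -7.64). Over all arrays it was at least 2.79-fold lower (limma adjusted p = 0.0152). This takes each array's dimmest signal well above background as the bound of the knockdown level, and does not allow for slide. That signal was -4.80 on control arrays 1 and 2 on slide 1, against -6.93 to -6.32 on the knockdown arrays. Odf1, a sperm tail protein of the family, had a log2 change of -1.29 ± 0.34 (SE, adjusted p = 0.0319). As for Hspb8, control array 3 on slide 2 had the lowest control level of both genes, and with slide as a block neither passed (-0.98 and -0.50).

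The ATP-driven chaperones went in both directions. Of 13 Hsp70 and Hsp110 genes tested in RAW264.7 cells, 3 rose and 1 fell (median -0.10). Hspa13, an Hsp70 relative of microsomes, rose by 1.63 ± 0.24 (SE, limma adjusted p = 0.00288), Hspa4l, an Hsp110 protein, by 1.39 ± 0.29 (adjusted p = 0.0146) and the stress-inducible Hsp70 gene Hspa1a by 1.30 ± 0.36 (adjusted p = 0.0384). Hyou1, the Hsp110 protein of the endoplasmic reticulum, fell by 1.29 on the log2 scale (adjusted p = 0.00385) and alone of the 4 passed with slide as a block. Hspa8, the constitutive Hsp70 that BAG3 binds, had a change of -0.50 ± 0.20 (SE, adjusted p = 0.0966).

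Among Hsp40 co-chaperones 2 of 21 rose and 2 fell (median -0.12). Dnaja4 rose by 2.10 ± 0.20 (SE, limma adjusted p = 0.000294) by the probe used, well above background on 1 of 3 control arrays, while its other probe gave 0.27 ± 0.26 (SE). Dnajc15, of the mitochondrial inner membrane, fell by 0.97 (adjusted p = 0.0107) and the ribosome-bound Dnajc2 by 0.74 (adjusted p = 0.0304). Of 14 Hsp90 genes and co-chaperones, 1 rose and 3 fell (median -0.40), among them Ahsa1, which stimulates the Hsp90 ATPase (-0.88 ± 0.18, SE, adjusted p = 0.0144), and Trap1, the mitochondrial Hsp90 (-0.91 ± 0.20, SE, adjusted p = 0.0168). Chordc1, an Hsp90 co-chaperone, rose by 0.72 ± 0.19 (SE, adjusted p = 0.0318). Of 10 chaperonin genes 2 fell and none rose (median -0.48), Cct7 by 0.70 and Hspe1 by 0.73, with changes of -0.25 and -0.83 by the other Hspe1 probes. With slide as a block 1 gene of these 3 lists passed, Dnaja4.

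The partners nearest to BAG3 and HSPB8 were mixed as well. None of 4 heat shock factor genes tested passed by limma, and 1, Hsf2, had an unadjusted p under 0.05. Its change was 0.59 ± 0.26 (SE, adjusted p = 0.111), and that of Hsf1, which drives the heat shock response, was -0.35 ± 0.23 (SE, adjusted p = 0.253). Of 7 other BAG domain and nucleotide exchange genes 2 fell and none rose (median -0.44): Sil1 by 0.93 (adjusted p = 0.0198) and Hspbp1 by 0.74 (adjusted p = 0.0271), both exchange factors of Hsp70 proteins. Of 9 partners in chaperone-assisted autophagy 2 rose and 1 fell, with a median of 0.25. Map1lc3a, an autophagosome membrane protein, rose by 0.75 ± 0.18 (SE, adjusted p = 0.0242). Flnc, the muscle filamin and a client of BAG3 and HSPB7, fell by 0.72 (adjusted p = 0.0377), and Stub1 differed by -0.55 ± 0.20 (SE, adjusted p = 0.0701). Of 17 HSF1-inducible genes 2 rose (Chordc1 and Hspa1a) and 2 fell (median -0.34). With slide as a block none of these 4 lists held a gene past the threshold.

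**Figure D4:**
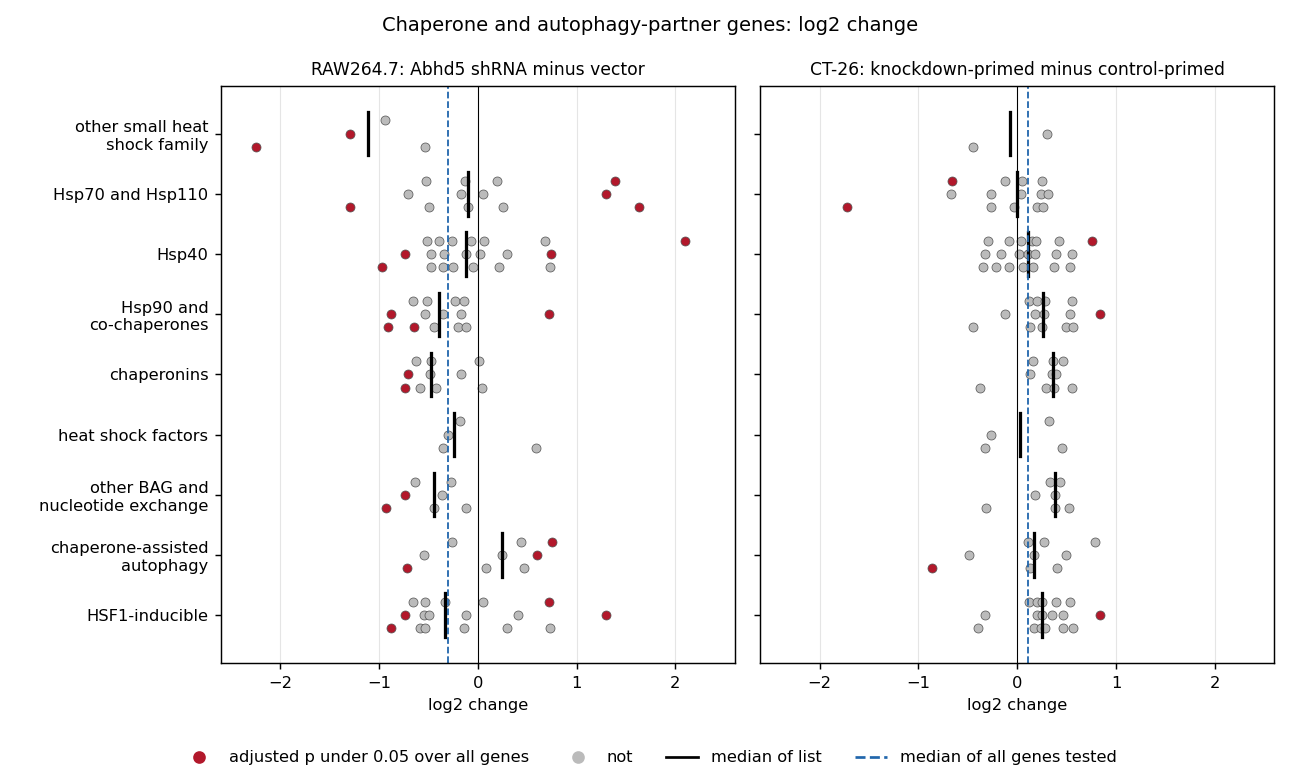
Log2 change of each tested gene of 9 chaperone and autophagy lists in RAW264.7 cells (left) and CT-26 cells (right); red points passed an adjusted p of 0.05 over all genes, black bars are list medians and dashed lines the median of all genes tested. List medians run from -1.12 to 0.25 in RAW264.7 cells and from -0.07 to 0.38 in CT-26 cells.

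In CT-26 cells fewer of these genes passed, as did fewer of all genes tested (6.36%, against 22.8% in RAW264.7 cells). Among the Hsp70 and Hsp110 genes 2 of 14 fell after knockdown priming: Hspa12a by 1.73 on the log2 scale (limma adjusted p = 0.0208), well above background on 2 of 3 knockdown-primed arrays, and Hspa4l by 0.66 (adjusted p = 0.0491). Dnaja4 rose by 0.76 ± 0.16 (SE, adjusted p = 0.0315), though its other probe gave -0.18 ± 0.18 (SE). Ahsa1 rose by 0.84 ± 0.16 (SE, adjusted p = 0.0249), the 1 gene of 14 in the Hsp90 list and of 17 in the HSF1-inducible list to do so. Flnc fell by 0.86 (adjusted p = 0.0182), with levels of 3.17, 3.05 and 2.99 in knockdown-primed and 3.87, 3.99 and 3.93 in control-primed cells.

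By limma none passed among the 2 other small heat shock family genes, 10 chaperonins, 4 heat shock factors and 7 BAG and exchange genes tested in CT-26 cells, where 1, 3, 1 and 5 had an unadjusted p under 0.05. The genes with the smallest p in these lists were Hspb9, Cct7 (0.56 ± 0.16), Hsf1 (0.45 ± 0.16) and Bag5 (0.38 ± 0.15, SE for each). Hspb9 is a testis member of the family and was well above background on all control-primed but no knockdown-primed arrays, so its change is only bounded, at least 1.06-fold lower (limma adjusted p = 0.164). Hsf2 differed by -0.32 ± 0.21, Hspa8 by 0.20 ± 0.18 and Stub1 by 0.27 ± 0.18 (SE). The list medians were between -0.07 and 0.38, against 0.11 for all genes.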

How the data were processed

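Total RNA of 12 samples was labelled with Cy3 and hybridised 1 array each, per the labels' protocols. Spot intensity was read from the deposited scanner files, made with Agilent Feature Extraction 10.7.3.1 per the submitters' processing notes. The processed signal was corrected for background within the array and not scaled between arrays, per the file headers, which also give mm9 probe positions. The deposited table of processed values was used as an alternative only. As deposited by the authors, its 6 RAW264.7 columns held log2 values, which matched the scanner signals less the array's 75th percentile. Its 6 CT-26 columns were linear, and 5 of the CT-26 columns matched another replicate of their group.

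Control spots and outlier-flagged spots were dropped, log2 signals were set against each array's 75th percentile, and spots of a probe were averaged. Genes were named through RefSeq (GRCm38.p6) for 26762 probes by accession and 3819 by symbol, and 25100 kept the design's name. A gene was represented by its brightest probe among those that every array of at least 1 group showed well above background, and was tested where this held in either group compared. Linear models were fitted in limma 3.58.1 under R 4.3.3, with moderated two-sided tests, Benjamini-Hochberg adjustment over all genes tested and a threshold of 0.05, after a check on simulated data. The knockdown and the primed comparison used 6 arrays each and their difference all 12. A change is the log2 difference of group means, with its SE. The number of arrays, 3 per group, limits the precision of every value.

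The members, the lists and the tests were chosen with earlier results of these data known. Named genes were the 8 members with every probe, Abhd5, Hsf1, Hsf2, Hspa8 and Stub1. To these came up to 3 genes of each list per comparison with the smallest p among those past the threshold (or the 1 with the smallest p where none passed), and the 3 nearest patterns of each member tested in RAW264.7 cells. The result of 1 gene chosen by this rule is not reported here. Alternatives were median centring, quantile normalization, normexp (offset 50) with quantile normalization, the deposited table, no background filter, a stricter one, slide as a block, slide 2 alone, replicate number as a block, every probe on its own, 1 fit over 12 arrays, and leaving out each array.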

Additional observations from a re-analysis of the deposited data

Results flagged for a closer look

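Several genes are given here because their change in RAW264.7 cells (knockdown minus control) and their change in CT-26 cells (knockdown-primed minus control-primed) differed by the interaction test of limma over all 12 arrays. Values are the first change minus the second on the log2 scale, with SE and the p adjusted over all 27074 genes tested. The CT-26 arrays share slide 3, but RAW264.7 control arrays 1 and 2 were on slide 1 and the knockdown arrays on slide 2. Part of any difference thus cannot be told apart from slide, and 31.4% of all genes tested passed. Of the members, Hspb7 (-5.10 ± 0.26) and Hspb6 (-1.12 ± 0.28) passed, given without a p since these contrasts were in view when they were picked.

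The targeted gene differed as well: Abhd5 (-1.39 ± 0.24, adjusted p = 0.00255). In the list of other small heat shock family genes, Cryaa (-2.25 ± 0.60, adjusted p = 0.0178), Hspb11 (-0.84 ± 0.27, adjusted p = 0.0334) and Odf1 (-1.28 ± 0.41, adjusted p = 0.0345) differed. Each had the lower change in RAW264.7 cells. Whether these genes carry the alpha-crystallin domain was not checked. The other Hspb11 probe gave -0.29. Cryaa was well above background only in control RAW264.7 cells and Odf1 on no knockdown-primed array and 1 control-primed array, so their fitted values are not measured sizes. Among Hsp70 and Hsp110 genes, Hspa4l (2.05 ± 0.35, adjusted p = 0.00259) and Hspa13 (1.90 ± 0.39, adjusted p = 0.00613) were on the higher side and Hyou1 (-1.26 ± 0.27, adjusted p = 0.00745) on the lower. The other Hspa13 probe gave 1.24 and did not pass the threshold over all probes. Among Hsp40 genes Dnaja4 (1.34 ± 0.25, adjusted p = 0.00379) was higher, although its other probe gave 0.45, and Dnajc2 (-1.30 ± 0.27, adjusted p = 0.0071) and Dnajc15 (-1.08 ± 0.30, adjusted p = 0.0193) were lower. The other Dnajc2 probe gave -0.99 and did not pass the threshold over all probes either.

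In the Hsp90 list every gene that passed had a lower change in RAW264.7 than in CT-26 cells: Ahsa1 (-1.72 ± 0.23, adjusted p = 0.000506), Cdc37 (-1.20 ± 0.23, adjusted p = 0.00411), Fkbp4 (-1.20 ± 0.26, adjusted p = 0.00824) and Stip1 (-1.10 ± 0.24, adjusted p = 0.00764) are among its 6. Chaperonins did the same, with Cct7 (-1.26 ± 0.24, adjusted p = 0.00469), Hspd1 (-1.05 ± 0.25, adjusted p = 0.0119) and Cct3 (-0.81 ± 0.21, adjusted p = 0.0173) among 5. So did Hspbp1 (-1.18 ± 0.25, adjusted p = 0.00774), Bag5 (-0.83 ± 0.21, adjusted p = 0.0143), Bag1 (-1.16 ± 0.33, adjusted p = 0.0233), Stub1 (-0.82 ± 0.26, adjusted p = 0.0322) and Hsf1 (-0.81 ± 0.28, adjusted p = 0.0458). The other probes of Bag1 and Bag5 gave -1.09 and -0.80. Such a difference can hold a rise in CT-26 cells: Ahsa1 changed by -0.88 in RAW264.7 and by 0.84 in CT-26 cells. The median over all genes was -0.39, and after quantile normalization, which moved it to -0.10, 0 chaperonins and 4 Hsp90 genes passed. With slide as a block 7 of the 21 list genes named here passed (Hspa4l, Hyou1, Dnaja4, Ahsa1, Cdc37, Fkbp4 and Cct7), as did Hspb7 and Abhd5. The others did not, among them Hspb6, the 3 genes of the small heat shock family list, Hsf1, Stub1, Hspbp1, Bag1 and Bag5.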

How the results depend on the processing

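Hspb7 kept its direction and its side of the threshold in all 16 RAW264.7 alternatives (log2 change -5.58 to -4.54), and no member past the threshold changed sign in any alternative. The count of members past the threshold in RAW264.7 cells, 3 as reported, was 1 after median centring, quantile normalization, normexp with quantile normalization, without the background filter, with slide as a block and within slide 2. It ran from 1 to 4 when 1 array was left out. In CT-26 cells it was 0 throughout. For the difference between the comparisons, 2 as reported, it was 1 with slide as a block and within slide 2, and 2 to 3 when 1 array was left out (3 without RAW264.7 control array 3). Hspb3 lost its call in 10 of 16 alternatives (-0.93 to -0.40) and Hspb6 in 13 of 16 (-0.89 to -0.47). Hspb8 ran from -1.10 to 1.07 and Bag3 from -0.12 to 0.32.

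Over all genes, the RAW264.7 calls (5801) were 3834 after median centring, 2643 without the filter, 1166 with slide as a block, 1867 within slide 2, 9208 in 1 fit over 12 arrays, and 1692 to 7387 when 1 array was left out. They were 2682, 1968 and 1692 without knockdown array 1, 2 or 3 and 2783 without control array 1. The CT-26 calls (1591) were 41 without the filter, 1031 in 1 fit over 12 arrays, and 3001, 600 and 233 without knockdown-primed array 1, 2 or 3, and 255 and 94 without control-primed array 2 or 3. The calls of the difference (8494) were 2381 with slide as a block and 3747 within slide 2. They were 5377 without knockdown array 3, 5427 without knockdown-primed array 3 and 5097 without control-primed array 3. The share of calls that were higher was 62.5%, 53.9% and 52.1% under the 3 other scalings in RAW264.7 cells (34.8% as reported), 62.6% after median centring in CT-26 cells (49.5%), and 34.4%, 41.4% and 43.3% for the difference (23.7%). The causes of these shifts were not tested.

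Same-numbered samples did not deviate together (r of -0.008, 0.043 and -0.018 in RAW264.7 and -0.113, -0.208 and -0.051 in CT-26 cells), so no pairing by number was seen. This cannot show whether samples were paired under other numbers. The highest r in CT-26 cells, 0.191, was between knockdown-primed array 2 and control-primed array 1. With the replicate number as a block, 2 members passed in RAW264.7 cells, 0 in CT-26 cells and 2 for the difference, and 4811, 902 and 6136 genes passed over all. No slide block was possible within CT-26 cells, whose arrays share a slide. Levels near background, as for Hspb1, Hspb2 and Hspb3, are the least certain.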

Other observations

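Hspb1 could not be tested in either comparison. Its 1 probe gave log2 levels of -8.92, -9.06 and -8.61 in knockdown and -7.10, -6.85 and -8.96 in control RAW264.7 cells, none of them well above background. In CT-26 cells the levels were -8.28, -7.76 and -7.22 after knockdown priming and -5.45, -7.21 and -6.91 after control priming, with control-primed array 1 alone well above background. The 2 higher control RAW264.7 values were both on slide 1, where the lowest signal well above background was -4.80 on both arrays, against -6.93 to -6.32 on slide 2. These are values of 1 probe, and no second probe for Hspb1 was on the array.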
